A study of Mus musculus with 9 samples.

Results

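The 35 genes examined here mark microglia and other brain macrophages, and were followed in cells sorted from the electroporated mouse embryonic cortex. They were taken from a fixed list of symbols and matched to the Ensembl identifiers of the deposited count table. All 35 were found among its 78275 identifiers, and all 35 were among the 27773 genes with enough reads to test. They comprised 11 genes of the homeostatic microglial programme, 14 genes of phagocytosis, complement and lysosomes, 3 genes of border macrophages, 5 lineage and leukocyte genes and 2 chemokine genes.

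The study asked how loss of either of 2 glypicans, heparan sulfate proteoglycans of the cell surface, affects cortical development. Plasmids carrying mCherry and a microRNA-based hairpin were electroporated in utero into wild-type embryos at E14.5. The hairpin targeted Gpc4 (sh-Gpc4, 3 libraries), Gpc2 (sh-Gpc2, 3 libraries) or was a scrambled sequence (sh-NT, 3 libraries). At E16.5, 48 h later, mCherry-positive forebrain cells, labelled as cortical progenitors and neurons, were sorted by FACS and sequenced, so all 9 libraries share electroporation, reporter and sort. Expression of the hairpins was transient and limited to cells that took up plasmid, and the labels do not name the promoter. Libraries are named by the number in their column of the count table, and nothing says whether they came from separate embryos or litters. The p-values therefore measure the spread between these libraries, which may be technical.

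Microglia are the resident macrophages of the brain. They arise from yolk-sac progenitors, enter the embryonic brain while neurons are still being made, and depend on the receptor CSF1R and on the transcription factors PU.1 (encoded by Spi1) and IRF8. In the embryonic cortex they gather near the proliferative zones, where they engulf precursors and debris. Border macrophages live in the meninges, around vessels and in the choroid plexus, and are told apart from microglia by the mannose receptor Mrc1 and the chemokine Pf4. Neither cell type descends from the radial glia that in utero electroporation targets.

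Total counts ran from 48045603 to 66538437 reads per library, so 3 reads correspond to 0.0451 to 0.0624 CPM (read counts scaled to library size, with TMM factors). Markers of the labelled cells were present throughout: 9 neuronal markers summed to 3470 to 4290 CPM per library and 8 radial glia markers to 1590 to 2640 CPM. Markers of T cells and natural killer cells (Cd3e, Cd3g, Ncr1 and Nkg7) had at most 1 read in any library. Of 7 lymphoid markers in all 2 were tested, Cd79a and Cd79b, with means of 0.141 and 5.84 CPM over the 9 libraries. Cd79b averaged 7.64 CPM in sh-Gpc4, 5.64 CPM in sh-Gpc2 and 4.24 CPM in sh-NT. In sh-Gpc4 over sh-NT Cd79a had a log2 fold change of -1.17 ± 0.58 (SE) and Cd79b of 0.85 ± 0.60. Of 10 monocyte and neutrophil genes 6 had too few reads to test: Camp, Elane, Mpo and Chil3 had at most 5 reads in a library, Ly6c2 at most 20 and Ngp at most 54. The 4 tested summed to 6.53 to 12.2 CPM in sh-Gpc4, 5.43 to 9.16 CPM in sh-Gpc2 and 3.81 to 4.69 CPM in sh-NT. Over sh-NT 3 were positive in sh-Gpc4 and 4 in sh-Gpc2, with median log2 fold changes of 0.63 and 1.01. Of these Ccr2 stood at 1.42 ± 0.74 (SE) in sh-Gpc4 over sh-NT, and 0 genes passed the adjusted test. Vascular and blood markers were low. The 6 endothelial markers tested summed to 5.41 to 7.73 CPM in sh-Gpc4, 5.68 to 7.66 CPM in sh-Gpc2 and 4.07 to 9.57 CPM in sh-NT. Pecam1 alone averaged 4.45 CPM over the 9 libraries. Of the 6 markers 5 had a negative log2 fold change over sh-NT in sh-Gpc4 and 5 in sh-Gpc2. The medians were -1.17 and -0.89, and 0 markers passed the adjusted test. The 5 mural cell markers summed to 9.18 to 13.4 CPM in sh-Gpc4, 7.89 to 19.5 CPM in sh-Gpc2 and 19.2 to 25.3 CPM in sh-NT, and 7 erythroid genes to 94.1 to 191 CPM in sh-Gpc4, 84.7 to 168 CPM in sh-Gpc2 and 79.6 to 158 CPM in sh-NT. The part of vascular or blood cells in the results below was not tested. The targeted genes did not pass the test: Gpc4 had 137, 99.9 and 129 CPM in sh-Gpc4 libraries 1, 3 and 4, against 165, 188 and 175 CPM in sh-NT libraries 1, 2 and 4 (log2 fold change -0.53 ± 0.21 SE, adjusted p = 0.488). Gpc2 had 167, 145 and 79.6 CPM in sh-Gpc2 libraries 1, 2 and 4, against 200, 207 and 161 CPM in the sh-NT libraries (-0.54 ± 0.33, adjusted p = 0.968).

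Upstream sequences of 5 members are shown because they span the pattern described below, in which P2ry12, Siglech and C1qb were low in 1 library and Mrc1 and Pf4 were not. Each is the RefSeq sequence from 250 bases before to 50 bases after the annotated start, on the gene's own strand in GRCm38.p6. Capitals mark the letters GAGGAA, or their reverse complement, the core of the PU box bound by PU.1. The sequences lie at chr3:59262936-59263235 on the minus strand (P2ry12), chr7:55767934-55768233 on the plus strand (Siglech), chr4:136886151-136886450 on the minus strand (C1qb), chr2:14229164-14229463 on the plus strand (Mrc1) and chr5:90772185-90772484 on the plus strand (Pf4).
P2ry12: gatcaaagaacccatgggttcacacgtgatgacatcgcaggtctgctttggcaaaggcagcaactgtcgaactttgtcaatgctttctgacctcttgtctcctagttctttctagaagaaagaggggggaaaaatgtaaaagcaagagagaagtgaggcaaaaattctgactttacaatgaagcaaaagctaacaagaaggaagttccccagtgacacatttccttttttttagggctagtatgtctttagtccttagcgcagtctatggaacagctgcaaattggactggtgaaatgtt
Siglech: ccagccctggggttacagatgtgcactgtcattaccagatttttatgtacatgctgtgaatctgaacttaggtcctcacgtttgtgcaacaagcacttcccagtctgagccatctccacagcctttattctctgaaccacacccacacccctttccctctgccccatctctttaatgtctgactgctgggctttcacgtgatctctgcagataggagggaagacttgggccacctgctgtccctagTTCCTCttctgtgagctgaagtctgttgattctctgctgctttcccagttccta
C1qb: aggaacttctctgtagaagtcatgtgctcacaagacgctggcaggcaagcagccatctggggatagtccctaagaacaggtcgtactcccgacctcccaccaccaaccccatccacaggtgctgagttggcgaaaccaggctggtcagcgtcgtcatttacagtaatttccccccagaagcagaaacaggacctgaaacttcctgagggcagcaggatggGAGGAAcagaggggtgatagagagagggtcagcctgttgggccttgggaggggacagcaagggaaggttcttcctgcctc
Mrc1: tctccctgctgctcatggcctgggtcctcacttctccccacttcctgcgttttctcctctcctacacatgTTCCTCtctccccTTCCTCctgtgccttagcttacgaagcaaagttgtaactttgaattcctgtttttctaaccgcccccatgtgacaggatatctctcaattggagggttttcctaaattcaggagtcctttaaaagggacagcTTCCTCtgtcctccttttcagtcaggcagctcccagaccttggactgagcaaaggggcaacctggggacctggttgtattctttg
Pf4: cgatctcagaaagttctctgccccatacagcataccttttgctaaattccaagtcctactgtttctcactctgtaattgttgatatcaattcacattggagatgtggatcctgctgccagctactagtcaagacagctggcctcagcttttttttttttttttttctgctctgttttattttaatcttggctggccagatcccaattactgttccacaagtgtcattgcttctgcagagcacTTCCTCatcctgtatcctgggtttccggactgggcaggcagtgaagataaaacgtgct
The core occurred 3 times in the Mrc1 window, 1 time each in those of Siglech, C1qb and Pf4, and 0 times in that of P2ry12. The window of Lyz2, a border gene that also was not low in that library, is not shown and held the core 0 times. Upstream sequences of 26 of the 35 genes were in the table used. Of these, 18 (69.2%) held the core on either strand, against 31.3% of 27025 genes. The longer run GAGGAAGT, which contains the core, was found in 4 of the 26 (15.4%), against 3.7% of all. The core was present in 4 of 7 homeostatic, 8 of 11 phagocytic and 2 of 3 border genes. A match describes letters in this window and does not mark a bound site.

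The 35 genes were read in every library of the sort. They took 0.398%, 0.439% and 0.562% of reads in sh-Gpc4 libraries 1, 3 and 4, and 0.501%, 0.174% and 0.557% in sh-Gpc2 libraries 1, 2 and 4. In sh-NT libraries 1, 2 and 4 they took 0.283%, 0.305% and 0.414%. The groups overlapped, and the lowest share of the 9 was that of sh-Gpc2 library 2. The group means were 0.466% ± 0.0853 in sh-Gpc4, 0.411% ± 0.207 in sh-Gpc2 and 0.334% ± 0.0701 in sh-NT (SD, n = 3 each). Cells were not counted, so in these bulk libraries more or fewer myeloid cells and more or less RNA per cell cannot be told apart. How myeloid RNA came into an mCherry gate was not tested.

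Per kilobase of exon, averaged over the 9 libraries, the level was highest for Apoe, a lipid carrier that radial glia also express (445 CPM per kb). The lysosomal proteases Ctss and Lgmn followed with 229 and 222 CPM per kb, the complement chain gene C1qb with 218 and the lysozyme gene Lyz2 with 134. Among the homeostatic genes the level ran from 49.0 CPM per kb for Fcrls, an Fc receptor-like gene used as a microglial marker, to 1.05 CPM per kb for Siglech. Csf1r, the receptor for the growth factors CSF1 and IL-34, stood at 30.8 and the purinergic receptor gene P2ry12 at 14.0 CPM per kb. Mrc1 stood at 3.40 CPM per kb, as did Ptprc, which encodes the pan-leukocyte antigen CD45. That match depends on the length used, all annotated exons, which is 18313 bases for Ptprc and 6371 for Mrc1. Without division by length, Ptprc averaged 62.2 CPM and Mrc1 21.7 CPM.

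**Figure D1:**
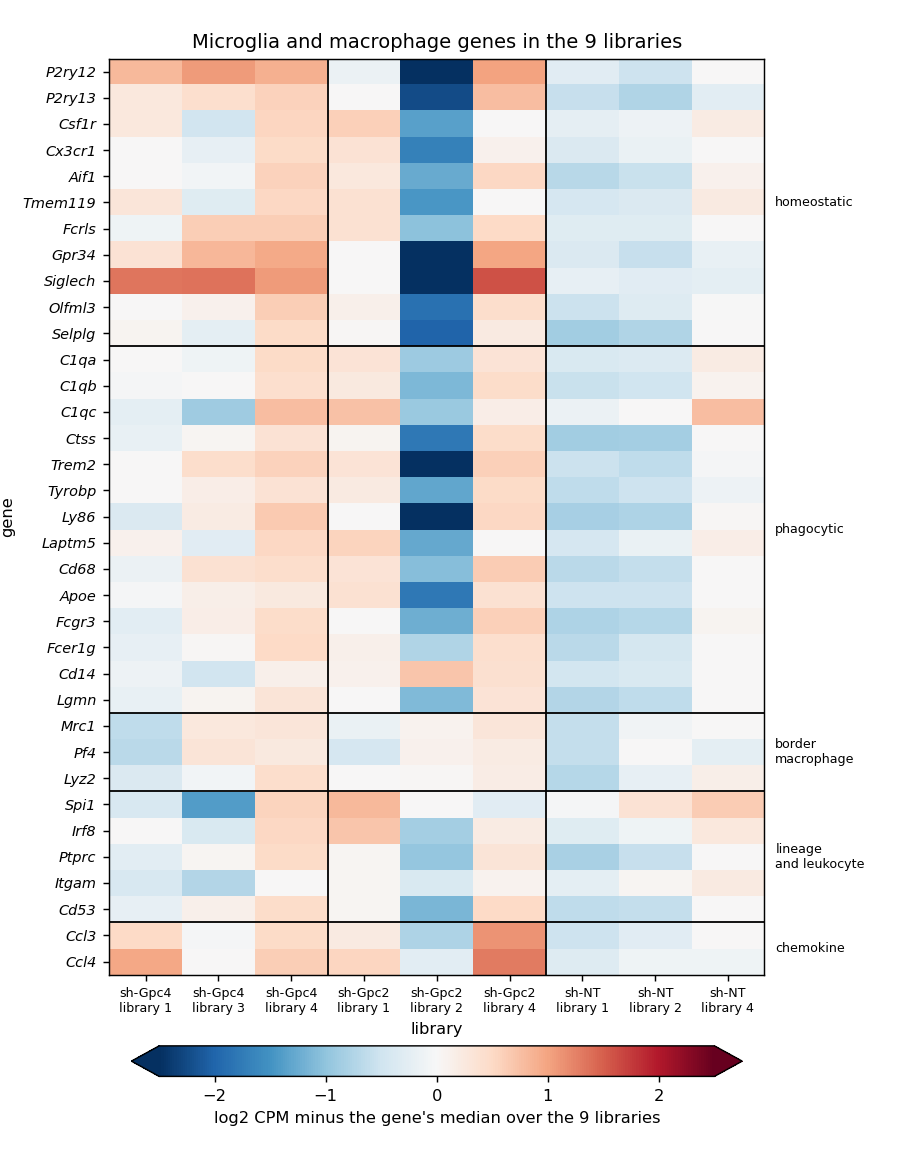
Each row is 1 of the 35 genes, grouped by class, and each column 1 library, sh-Gpc4 at the left, then sh-Gpc2, then sh-NT. Colour gives the log2 CPM minus the gene's median over the 9 libraries. The column of sh-Gpc2 library 2 holds the lowest value of 28 of the 35 genes, and its 3 border genes do not share that.

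In sh-Gpc4 cells against sh-NT cells most of the genes read higher, and none passed the test. The fitted log2 fold change (the log2 ratio of sh-Gpc4 to sh-NT) was positive for 32 of 35 genes, against 52.8% of all 27773 genes, with a median of 0.53, against 0.02 over all genes. At an adjusted p under 0.05 edgeR called 0 of the 35, against a background of 0% of all genes, and the smallest adjusted p among them was 0.488. At an unadjusted p under 0.05 it called 0 members, against 3.56% of all genes higher and 6.01% lower. DESeq2 and limma-voom also called 0 members after adjustment. In 8 genes the 3 sh-Gpc4 libraries all lay above the 3 sh-NT libraries, where 10.8% of all genes did so. They were P2ry12, P2ry13, Gpr34, Siglech, Olfml3, Trem2, Tyrobp and Ccl4. In 0 members did they all lie below, against 13.2% of all genes.

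All 11 homeostatic genes had a positive fold change in this comparison, with a median log2 fold change of 0.60 and a range of 0.20 to 1.5. P2ry12, the ADP receptor that guides microglial processes to injury, had 50, 59.2 and 52.5 CPM in sh-Gpc4 libraries 1, 3 and 4, then 25.6, 4.28 and 57.4 CPM in sh-Gpc2 libraries 1, 2 and 4, and 23.4, 19.8 and 28.4 CPM in sh-NT libraries 1, 2 and 4. Every sh-Gpc4 library exceeded every sh-NT library, and the sh-Gpc2 libraries spread across the range of both. The log2 ratio of sh-Gpc4 to sh-NT was 1.18 ± 0.65 (SE), with a 95% interval of -0.28 to 2.63 and an adjusted p of 0.488. An exact two-sided permutation test over libraries gave p = 0.1, the smallest that 3 against 3 allows.

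Siglech, a sialic-acid-binding lectin gene used as a microglial marker, had 5.91, 5.94 and 4.86 CPM in the sh-Gpc4 libraries, 2.33, 0.0161 and 7.0 CPM in the sh-Gpc2 libraries and 2.03, 1.91 and 1.96 CPM in the sh-NT libraries. The 3 sh-Gpc4 values lay close together above the 3 sh-NT values, and the 0.0161 CPM of sh-Gpc2 library 2 was 1 read. The log2 ratio of sh-Gpc4 to sh-NT was 1.5 ± 0.96. Gpr34, a lysophosphatidylserine receptor gene, had 22.6, 31.1 and 33.6 CPM in sh-Gpc4, 17.5, 1.47 and 34.8 CPM in sh-Gpc2 and 13.6, 11.7 and 15.3 CPM in sh-NT. Its sh-Gpc4 and sh-NT libraries did not overlap either, sh-Gpc2 library 2 was again lowest, and its log2 ratio of sh-Gpc4 to sh-NT was 1.10 ± 0.75.

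Not every homeostatic gene separated the groups. Csf1r had 208, 125 and 253 CPM in sh-Gpc4, 263, 67.9 and 174 CPM in sh-Gpc2 and 149, 159 and 201 CPM in sh-NT. Its sh-Gpc4 libraries fell on both sides of the sh-NT libraries, with a log2 fold change of 0.20 ± 0.42. The fractalkine receptor gene Cx3cr1 had 133, 115 and 185 CPM in sh-Gpc4, 171, 41.4 and 143 CPM in sh-Gpc2 and 103, 118 and 133 CPM in sh-NT, again overlapping (0.29 ± 0.41). Thus P2ry12 reads per Csf1r read, as a ratio of CPM, came to 0.240, 0.474 and 0.207 in sh-Gpc4, 0.0974, 0.0630 and 0.331 in sh-Gpc2 and 0.157, 0.124 and 0.141 in sh-NT. Csf1r shares 873 bases of exon, 15.12% of its exon length, with the neighbouring Hmgxb3, and reads of the pair cannot be separated there.

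**Figure D2:**
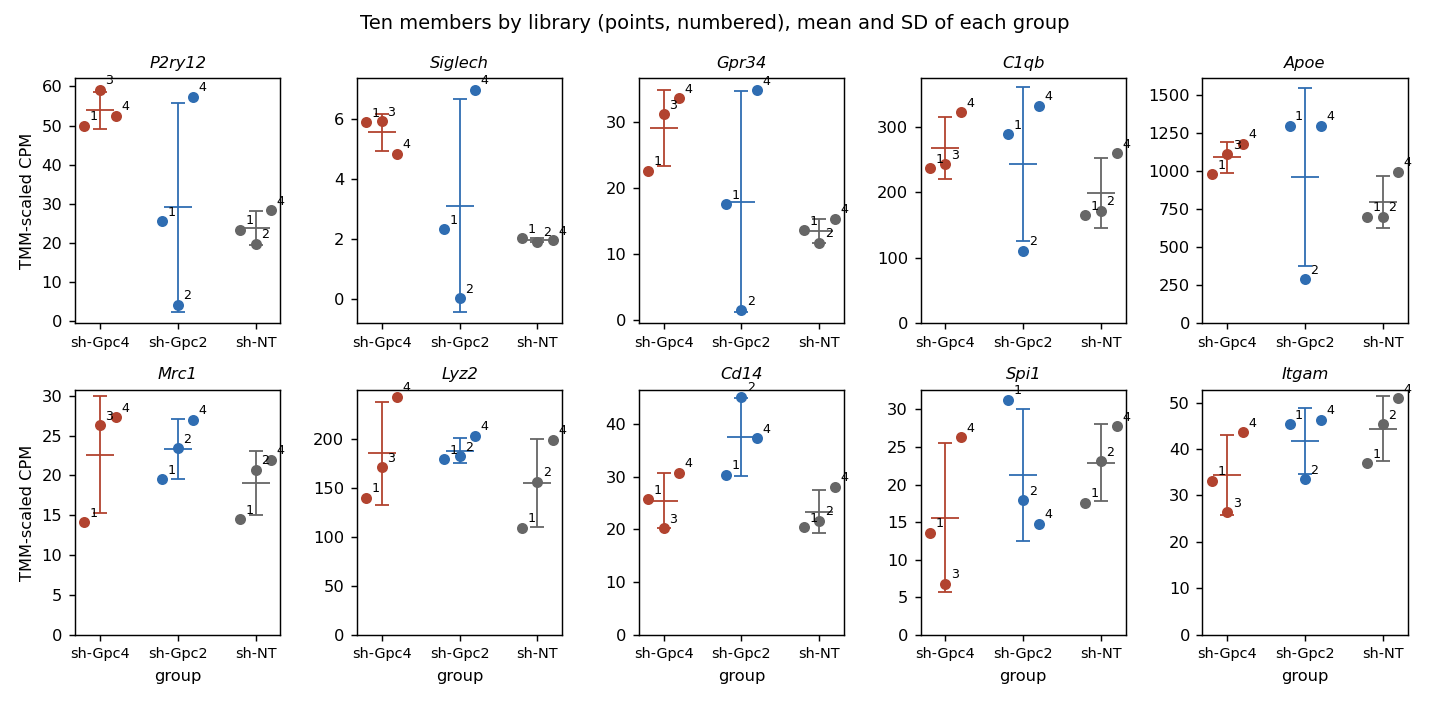
TMM-scaled CPM of 10 members in each library (numbered points), with the mean and SD of each group, sh-Gpc4 left, sh-Gpc2 middle, sh-NT right. P2ry12, Gpr34 and Siglech lie higher in all sh-Gpc4 libraries than in any sh-NT library, Mrc1 and Lyz2 overlap between all groups, and sh-Gpc2 library 2 is lowest for the microglial receptors but highest for Cd14.

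Of the 14 phagocytic genes 13 were positive in sh-Gpc4 over sh-NT, with a median of 0.48. Trem2, a lipid-sensing receptor, had 39.4, 53.3 and 58.7 CPM in sh-Gpc4, 50.1, 6.42 and 59.4 CPM in sh-Gpc2 and 27.2, 25.3 and 38.5 CPM in sh-NT. Its signalling adaptor Tyrobp had 59.2, 66.5 and 75.8 CPM in sh-Gpc4, 69.3, 24.1 and 82.4 CPM in sh-Gpc2 and 37.9, 41.3 and 54.4 CPM in sh-NT. For both genes the sh-Gpc4 libraries stood above the sh-NT libraries without overlap and the sh-Gpc2 libraries did not. The log2 ratio of sh-Gpc4 to sh-NT was 0.73 ± 0.60 for Trem2 and 0.59 ± 0.36 for Tyrobp.

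Apoe had 980, 1110 and 1180 CPM in sh-Gpc4, 1300, 287 and 1300 CPM in sh-Gpc2 and 700, 701 and 997 CPM in sh-NT. The groups overlapped, since sh-NT library 4 exceeded sh-Gpc4 library 1, and the log2 ratio of sh-Gpc4 to sh-NT was 0.45 ± 0.44. The 3 genes of the complement starter C1q did not all move alike. C1qb had 237, 243 and 323 CPM in sh-Gpc4, 289, 111 and 333 CPM in sh-Gpc2 and 165, 172 and 260 CPM in sh-NT, a log2 fold change of 0.43 ± 0.35 for sh-Gpc4 over sh-NT. C1qc had 106, 67.8 and 213 CPM in sh-Gpc4, 207, 66.0 and 140 CPM in sh-Gpc2 and 113, 125 and 213 CPM in sh-NT, a log2 fold change of -0.22 ± 0.48. C1qb per C1qa kept to 1.78 to 2.26 in all 9 libraries, whereas C1qc per C1qb ran from 0.280 in sh-Gpc4 library 3 to 0.819 in sh-NT library 4.

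Single libraries also differed in how GC-rich genes read. Genes of at least 55% GC lay 0.53 below genes under 45% GC on the log2 scale in sh-Gpc4 library 3, and 0.34 below in sh-Gpc2 library 4. In sh-Gpc4 library 4 they lay 0.12 below. They lay 0.09 above in sh-Gpc4 library 1, 0.24 and 0.18 above in sh-Gpc2 libraries 1 and 2, and 0.13 to 0.24 above in the sh-NT libraries. The median log2 ratio of sh-Gpc4 to sh-NT was 0.75 for the 6 members of low GC, 0.55 for 22 between and 0.29 for the 7 of high GC. With the GC trend removed from each library, an alternative added after seeing the data, the median over the 35 genes was 0.61.

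The border macrophage genes had a median log2 ratio of 0.25 for sh-Gpc4 to sh-NT, and whether this differs from the other classes was not tested. Mrc1 had 14.1, 26.3 and 27.3 CPM in sh-Gpc4, 19.5, 23.4 and 27.0 CPM in sh-Gpc2 and 14.45, 20.7 and 22.0 CPM in sh-NT. Lyz2, which monocytes and neutrophils also express, had 140, 171 and 243 CPM in sh-Gpc4, 179, 182 and 203 CPM in sh-Gpc2 and 109, 156 and 199 CPM in sh-NT. In both, every group overlapped the others, and library 1 of each group was its lowest. The log2 ratio of sh-Gpc4 to sh-NT was 0.25 ± 0.26 for Mrc1 and 0.25 ± 0.23 for Lyz2. Pf4, at 2.16 to 4.32 CPM over the 9 libraries, stood at 0.29 ± 0.28. Lyz1, a near copy of Lyz2, had at most 21 reads in a library.

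The 2 genes Spi1 and Itgam of the lineage class had lower means in sh-Gpc4 libraries than in sh-NT libraries. Spi1 had 13.6, 6.78 and 26.3 CPM in sh-Gpc4, 31.3, 17.9 and 14.8 CPM in sh-Gpc2 and 17.6, 23.1 and 27.8 CPM in sh-NT. Its groups overlapped (log2 fold change -0.55 ± 0.45), and the value was -0.18 without sh-Gpc4 library 3, -1.16 without sh-Gpc4 library 4 and -0.21 with the GC trend removed. Itgam, which encodes CD11b, had 33.2, 26.4 and 43.6 CPM in sh-Gpc4, 45.3, 33.5 and 46.3 CPM in sh-Gpc2 and 37.0, 45.3 and 50.9 CPM in sh-NT (-0.37 ± 0.20). Its values are uncertain, because 68.67% of its exon length is shared with Gm49368 in the annotation. Ptprc, Cd53, a leukocyte tetraspanin gene, and Irf8 read higher in sh-Gpc4, at 0.55 ± 0.33, 0.53 ± 0.36 and 0.12 ± 0.36.

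The chemokine genes Ccl3 and Ccl4, whose products attract leukocytes, were read at 35.8 to 51.4 and 58.6 to 114 CPM in the sh-Gpc4 libraries and at 25.3 to 36.3 and 46.9 to 54.7 CPM in the sh-NT libraries. Ccl4 had 114, 58.6 and 89.5 CPM in sh-Gpc4, 85.0, 49.1 and 145 CPM in sh-Gpc2 and 46.9, 54.7 and 54.6 CPM in sh-NT. All sh-Gpc4 libraries were above all sh-NT libraries, though library 3 only narrowly, and sh-Gpc2 library 2 lay within the sh-NT range. The log2 fold change over sh-NT was 0.74 ± 0.35 in sh-Gpc4 (adjusted p = 0.488) and 0.84 ± 0.35 in sh-Gpc2 (adjusted p = 0.968).

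**Figure D3:**
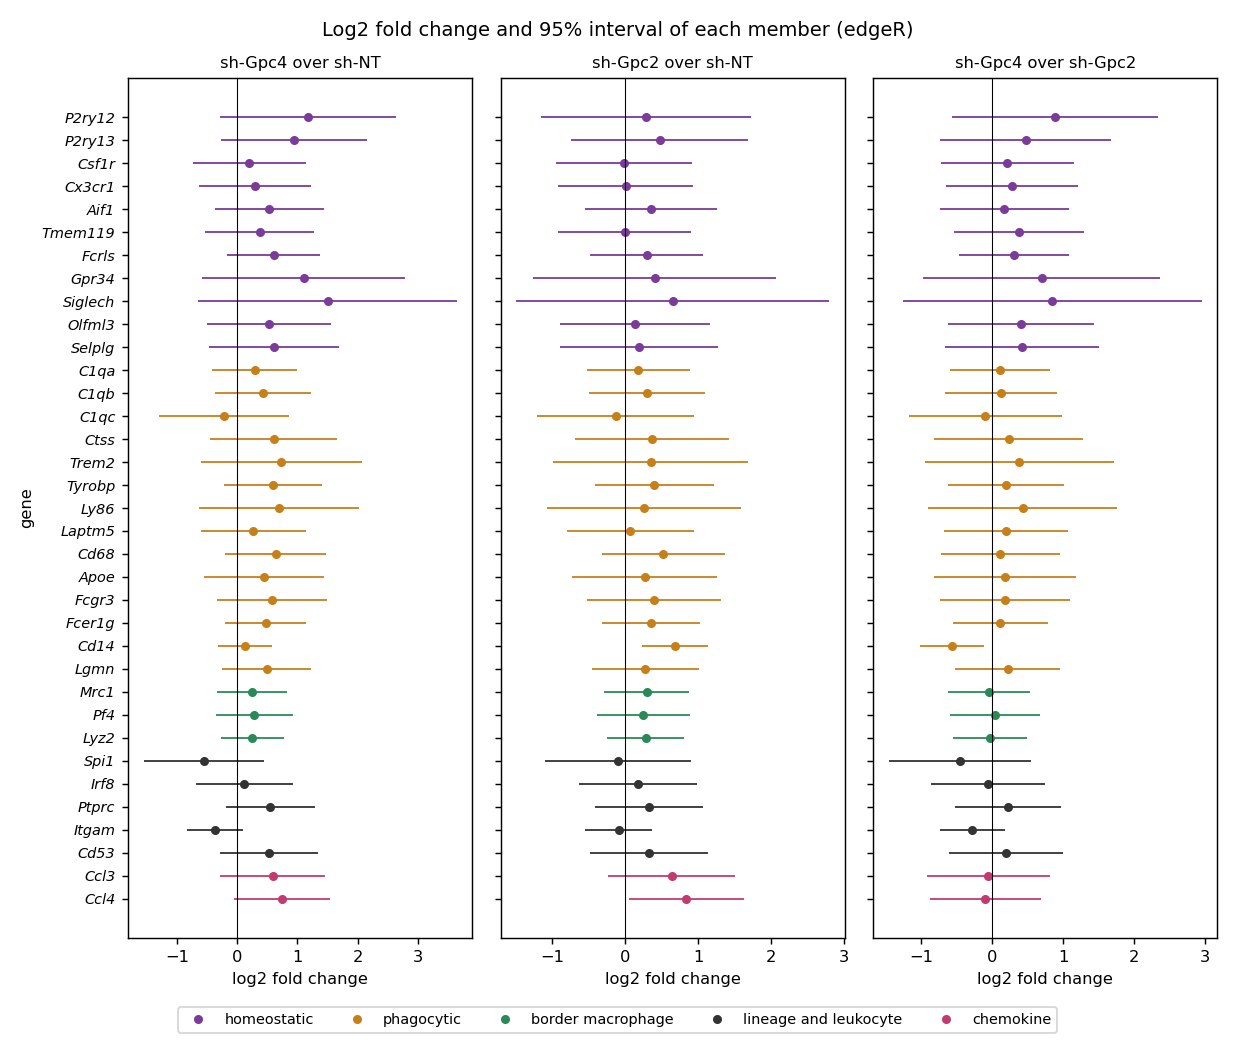
Log2 fold change (points) and 95% interval (lines) of each of the 35 genes from edgeR, coloured by class, for sh-Gpc4 over sh-NT, sh-Gpc2 over sh-NT and sh-Gpc4 over sh-Gpc2. In the comparison of sh-Gpc4 with sh-NT 32 points lie right of 0, and the intervals of all 35 include 0.

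In sh-Gpc2 cells against sh-NT cells 30 of 35 genes were positive, against 50.7% of all genes, with a median log2 fold change of 0.29, against 0.00 over all genes. This comparison and that of sh-Gpc4 share the sh-NT libraries. At an adjusted p under 0.05 edgeR called 0 of the 35 and 0% of all genes, with a smallest adjusted p of 0.968 among members. At an unadjusted p under 0.05 it placed 2 members higher, Cd14 and Ccl4, against 1.62% of all genes, and 0 lower, against 0.947%. DESeq2 and limma-voom called 0 members after adjustment. The sh-Gpc2 libraries lay wholly above the sh-NT libraries in 1 member, Cd14, against 3.59% of all genes. In 0 members did they lie wholly below, against 4.11%.

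Cd14, the co-receptor for bacterial lipopolysaccharide, differed from most other members. It had 25.7, 20.2 and 30.8 CPM in sh-Gpc4, 30.4, 45.2 and 37.3 CPM in sh-Gpc2 and 20.4, 21.7 and 28.1 CPM in sh-NT. It was highest in sh-Gpc2 library 2, the library lowest for most other members. The log2 ratio of sh-Gpc2 to sh-NT was 0.69 ± 0.20, with a 95% interval of 0.23 to 1.14, unadjusted p = 0.00718 and adjusted p = 0.968.

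By class, the median log2 ratio of sh-Gpc2 to sh-NT was 0.28 for homeostatic genes, 0.32 for phagocytic genes, 0.28 for border genes, 0.17 for lineage genes and 0.74 for the chemokines. These medians average over libraries of unlike content. The mean log2 CPM of the 11 homeostatic genes, set against its mean over the 9 libraries, was 0.43, 0.40 and 0.79 in sh-Gpc4 libraries 1, 3 and 4, 0.31, -2.12 and 0.68 in sh-Gpc2 libraries 1, 2 and 4 and -0.31, -0.30 and 0.11 in sh-NT libraries 1, 2 and 4. For the 14 phagocytic genes the same measure was 0.02, 0.14 and 0.59 in sh-Gpc4, 0.39, -1.12 and 0.56 in sh-Gpc2 and -0.44, -0.36 and 0.23 in sh-NT. For the 3 border genes it was -0.48, 0.25 and 0.41 in sh-Gpc4, -0.12, 0.15 and 0.31 in sh-Gpc2 and -0.55, -0.01 and 0.05 in sh-NT. In sh-Gpc2 library 2 it was -0.70 for the 2 chemokines and -0.57 for the 5 lineage genes. The deficit of sh-Gpc2 library 2 was deepest in the homeostatic class, smaller in the phagocytic, chemokine and lineage classes and not seen in the 3 genes of the border class.

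**Figure D4:**
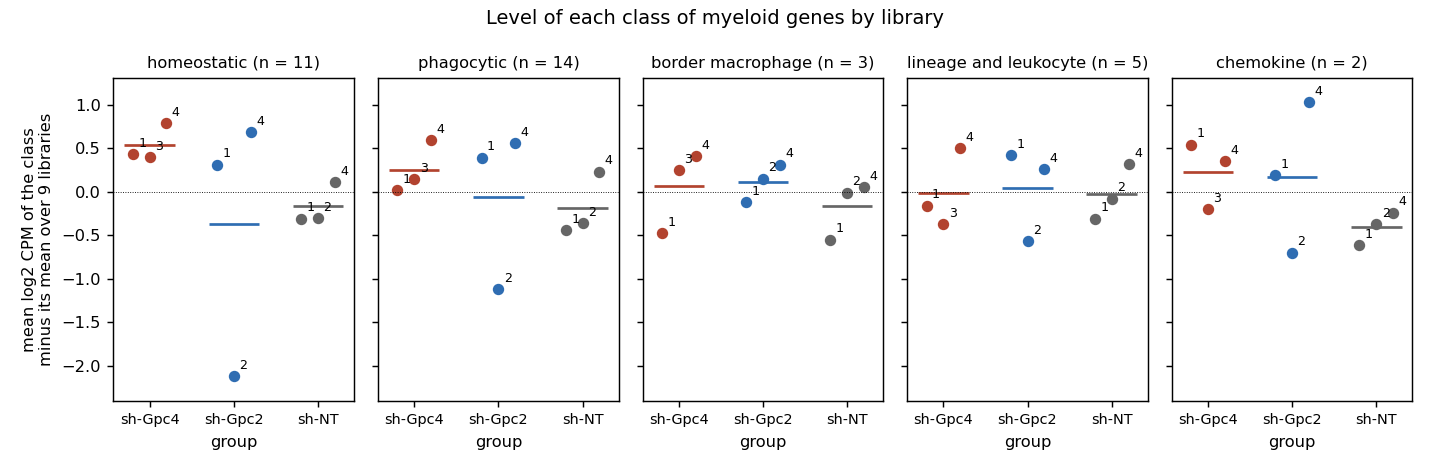
Mean log2 CPM of each class of genes in each library (points, numbered), minus its mean over the 9 libraries, with sh-Gpc4 left, sh-Gpc2 middle and sh-NT right in each panel. sh-Gpc2 library 2 sits at -2.12 for homeostatic genes, -1.12 for phagocytic genes, -0.70 for chemokines and -0.57 for lineage genes, and at 0.15 for the 3 border genes.

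This library was lowest of the 9 for 28 of the 35 genes, where 14% of all genes had their lowest value in it. Set against the mean of sh-Gpc2 libraries 1 and 4, its CPM had a median of 34.0% over the 35 genes and of 101% over all tested genes. The homeostatic genes had a median of 22.8%, from 0.346% for Siglech to 36.0% for Fcrls, with Gpr34 at 5.61% and P2ry12 at 10.3%. Siglech, Gpr34 and P2ry12 had the 3 lowest percentages of the 35 genes. The phagocytic genes had a median of 34.0%, with Trem2 at 11.7%, Ly86, a partner of a toll-like receptor homologue, at 14.7%, Apoe at 22.1% and Fcer1g, the Fc receptor signalling chain, at 48.4%. The lineage genes had a median of 44.7%, from 37.3% for Cd53 to 77.7% for Spi1, and the 2 chemokines had a median of 38.8%. The 3 border genes were at about the level of the other libraries of the group. Mrc1 stood at 101%, Pf4 at 112% and Lyz2 at 95.4%. Being the values of 1 library, these percentages carry no replicate error.

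Ratios between members within a library, which do not depend on the total of other RNA in the sort, set it apart too. P2ry12 per Mrc1 was 3.53, 2.25 and 1.92 in the sh-Gpc4 libraries, 1.31, 0.182 and 2.12 in the sh-Gpc2 libraries and 1.62, 0.954 and 1.29 in the sh-NT libraries. Cx3cr1 per Lyz2 was 0.227 in sh-Gpc2 library 2 and 0.667 to 0.955 in the other 8 libraries. Both ratios pair a gene that was low in this library with one that was not.

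Other lists in the same library were read for comparison. Of 23 further myeloid genes 21 were below 100%, with a median of 57.6%. All 8 genes listed for perinatal amoeboid or phagocytic microglia were below 100%, with a median of 24.6%. Some were near the floor, such as Cst7 with 5 reads in this library. Of 7 further border macrophage genes 5 were below 100%, with a median of 65.4% and a range of 12.9% to 276%. Other lists lay on both sides: 4 of 10 activation genes were below 100%, with a median of 112%, and 2 of 6 complement genes, with a median of 114%. The 4 monocyte and neutrophil genes tested also split. The chemokine receptor gene Ccr2 stood at 7.07% and Plac8 at 80.2%, and the calprotectin genes S100a8 and S100a9 at 514% and 989%, though at only 2.71 and 1.19 CPM in this library. The 7 erythroid genes were all above 100%, with a median of 146%, and 8 radial glia genes had a median of 126%. The part of blood or border cells in the result was not tested.

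**Figure D5:**
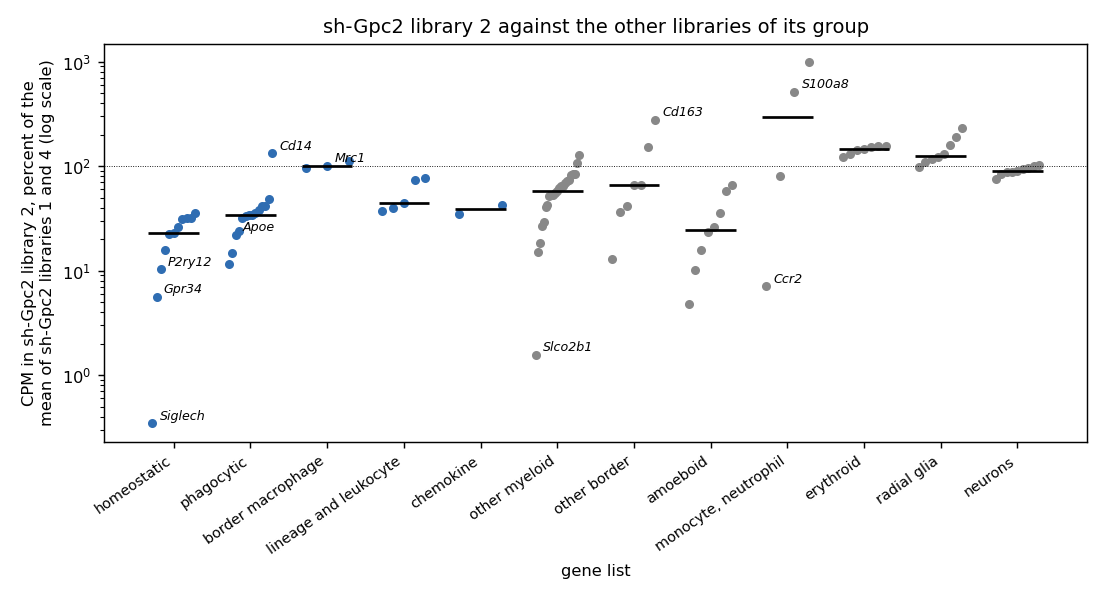
CPM in sh-Gpc2 library 2 as a percentage of the mean of sh-Gpc2 libraries 1 and 4, on a log axis, for each gene (points) of each list. Homeostatic genes lie between 0.346% and 36.0%, the 3 border genes among the members between 95.4% and 112%. The 7 other border genes lie between 12.9% and 276%, with a median of 65.4% and 5 below 100%.

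The comparisons with sh-Gpc2 depended on this library. Without it, the median log2 ratio of sh-Gpc2 to sh-NT was 0.63, all 35 genes were positive, and 21 had an unadjusted p under 0.05, against 5.22% of all genes. The smallest adjusted p among members was then 0.84. Library 2 stood out because most of these same genes were low in it. Its removal was bound to raise them and narrow their spread, so the counts without it are not separate evidence. Without sh-Gpc2 library 4 instead, the median was -0.01, with 17 genes positive and 18 negative. Leaving out sh-NT library 4 gave 0.51, and leaving out sh-NT library 1 gave 0.18. Library 2 also entered the test of sh-Gpc4 against sh-NT through the shared estimate of spread. Without it the median of that comparison was 0.53, and 16 of the 35 genes had an unadjusted p under 0.05, against 11.2% of all genes, with 0 past adjustment and a smallest adjusted p of 0.443. The median of sh-Gpc4 over sh-NT was 0.33 without sh-Gpc4 library 4.

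In sh-Gpc4 cells against sh-Gpc2 cells 26 of 35 genes were positive, against 49.5% of all genes, with a median log2 fold change of 0.20, against 0.00. At an adjusted p under 0.05 edgeR called 0 of the 35 and 0% of all genes, and DESeq2 and limma-voom called 0 members. At an unadjusted p under 0.05 it placed 0 members higher, against 1.09% of all genes, and 1 lower, Cd14, against 1.8%. Cd14 had a log2 fold change of -0.56 ± 0.20 (unadjusted p = 0.0203, adjusted p = 0.966). The libraries were wholly apart in 0 members in either direction, against 3.5% of all genes higher and 2% lower. All 11 homeostatic genes were positive, with a median of 0.40, whereas the border genes had a median of -0.03. Without sh-Gpc2 library 2 the median over the 35 genes was -0.15, with 30 of 35 negative. Leaving out sh-Gpc4 library 4 gave 0.01, and leaving out sh-Gpc2 library 4 gave 0.47.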

How the data were processed

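The values used are the raw counts that the authors deposited, 1 column for each of 9 libraries. Counting was done with featureCounts (Subread), and the builds are GRCm38 and mm10, per the submitters' processing notes. For the aligner, annotation release, versions and strand setting, details were not given in the sources used here. Reads of overlapping genes therefore cannot be separated. Per the labels, RNA came from a picoscale kit and a low-input library kit. PCR duplicates cannot be recognised. The intervals given for fold changes include the spread between these libraries, as the p-values do, and that spread may be technical.

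Symbols from GENCODE M21 matched 51486 of 78275 identifiers (65.8%). Counts were scaled by TMM and tested with the quasi-likelihood test of edgeR 4.0.16 (R 4.3.3), after filterByExpr, in 1 fit of all 9 libraries with a coefficient per group. Benjamini-Hochberg adjustment of p-values ran over the 27773 genes tested. The script was tested on simulated data. Column numbers show the group of each library but not which titled replicate it is. Alternatives were DESeq2 1.42.0, limma 3.58.1 voom with sample weights, other scalings and filters, 2-group fits, each library left out, a replicate block and, added after seeing the data, removal of the GC trend and of 2 libraries together.

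The 35 genes and all lists were chosen with earlier results of these data known. All 35 could be named. Of every other list, up to 3 genes with the highest mean CPM and up to 2 with the smallest unadjusted p in a comparison could be named, and others are said to be chosen after their values were seen.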

Additional observations from a re-analysis of the deposited data

How the results depend on the processing

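No member passed an adjusted p under 0.05 in edgeR, DESeq2, limma-voom or any other alternative run, and leaving out each library gave 0 to 0 calls in each comparison. Over all genes DESeq2 called 45 in sh-Gpc4 against sh-NT, where edgeR and limma-voom called 0. In that comparison limma-voom gave 26 of 35 members an unadjusted p under 0.05 (32.4% of all genes) and a smallest adjusted p of 0.0543, and fitting the 2 groups alone gave 17 (17.4%) and 0.111. Leaving out each library in turn moved the median log2 fold change over the 35 genes between 0.33 and 0.71 in sh-Gpc4 over sh-NT, between -0.01 and 0.63 in sh-Gpc2 over sh-NT and between -0.15 and 0.47 in sh-Gpc4 over sh-Gpc2. P2ry12 in sh-Gpc2 over sh-NT (0.29) was -0.53 with limma-voom and -0.24 with the replicate block, and ran from -0.67 to 0.80 with a library left out. C1qb in sh-Gpc4 over sh-Gpc2 (0.13) was -0.17 without sh-Gpc2 library 2 and sh-Gpc4 library 3 together, and ran from -0.22 to 0.42. Mrc1 in sh-Gpc4 over sh-Gpc2 (-0.05) was 0.10 with limma-voom and ran from -0.21 to 0.20. The causes were not tested. To look for pairing, each gene's group mean was subtracted, over genes with a mean log2 CPM above 3. The remaining deviations, not the expression levels, were correlated between libraries of different groups. Same-numbered libraries gave -0.10 to 0.68, with 4 of 7 pairs over 0.1, and other pairs gave -0.87 to 0.83. Because these ranges are wide and overlap, they cannot decide whether the numbers pair the libraries. With the replicate block the medians were 0.24, 0.10 and 0.05 in the 3 comparisons in the order above, and sh-Gpc4 library 3, alone in its number, dropped out. With 3 libraries a group, no exact test over libraries can go below 0.1.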

Other observations

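Of 6 tested genes for signals that act on microglia 3 were positive and 3 negative in sh-Gpc4 over sh-NT, with a median log2 fold change of 0.05. Cd200, Tgfb1 and Cd47 stood at 0.21, 0.22 and 0.12, and Cxcl12 at -0.03. Csf1, which encodes a ligand of CSF1R, averaged 22.8 ± 13.3 CPM in sh-Gpc4, 40.8 ± 23.1 CPM in sh-Gpc2 and 45.1 ± 5.64 CPM in sh-NT (SD, n = 3 each). All 3 sh-Gpc4 libraries lay below the sh-NT libraries, with a log2 fold change of -0.98 ± 0.48 (SE) that did not pass the edgeR test (adjusted p = 0.488). Cx3cl1, the ligand of CX3CR1, stood at -1.29 ± 0.54 (unadjusted p = 0.0375, adjusted p = 0.488). The exons of Csf1 and Cx3cl1 are 54.4% and 57.1% GC, and genes of at least 55% GC read low in sh-Gpc4 library 3. The part of GC content in these differences was not tested. Il34, the other CSF1R ligand, had at most 9 reads in a library and was not tested. Of 6 complement genes outside C1q 3 were positive and 3 negative in sh-Gpc4 over sh-NT, with a median of -0.08 and a range from -1.84 ± 0.80 for C4b (adjusted p = 0.488) to 0.51 ± 0.37 for C3ar1.

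Of 23 further myeloid genes 18 were positive in sh-Gpc4 over sh-NT and 16 in sh-Gpc2 over sh-NT, with medians of 0.19 and 0.09. The 10 activation genes were positive in 5 and 9, with medians of -0.06 and 0.12, and 0 genes of either list passed the adjusted test.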
